A study of Homo sapiens with 18 samples.

Results

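The 2-oxoglutarate-dependent dioxygenases were followed in this panel as 40 genes of 19752 that the arrays measure. They comprised 3 TET methylcytosine dioxygenases, 18 JmjC proteins, 5 HIF hydroxylases, 5 collagen hydroxylases, 5 ALKBH and FTO demethylases and 4 further enzymes. The rule names the enzymes of the family and uses no measured value, although it was written with earlier results of these data known. Every member had a probe set, 117 in all, and each gene was represented by its probe set of highest mean signal. All 40 passed the filter on dim probe sets, and EGLN2 was the exception in having an array, parental replicate 1 at 8.9, under the array median.

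The cells were HCT116, a long-established line from a human colorectal carcinoma, grown for 6 days without treatment. The tested clones carried 1 mutant allele of IDH1, the cytosolic isocitrate dehydrogenase, or of IDH2, the mitochondrial one. Clones 2C11 and 2H1 were IDH1 R132H/+, clone 3A4 was IDH1 R132C/+, clones 8G12 and 17H5 were IDH2 R140Q/+, and clones 47C2 and 45G3 were IDH2 R172K/+. The wild-type clones were 16F8, which was targeted with IDH1 R132C/+ but does not express the mutant allele as mRNA, and the parental line. Each line other than parental is a single clone, so a clone and its history cannot be told apart, and each genotype rests on 1 or 2 clones. Every clone was measured on 2 arrays, called biological replicates in the labels, and no label says how the cultures were separated.

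These enzymes use molecular oxygen, ferrous iron and 2-oxoglutarate to hydroxylate a protein, nucleic acid or small molecule, and they release succinate and carbon dioxide. Mutant IDH1 and IDH2 make 2-hydroxyglutarate from 2-oxoglutarate, and 2-hydroxyglutarate can compete with 2-oxoglutarate at the active site of many of these enzymes. The comparison asked whether mRNA levels of the enzymes differed between clones. Enzyme activity, protein and 2-hydroxyglutarate were not measured on these arrays.

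The values were MAS5 signals on a linear scale, scaled by the authors to a common level, with array medians of 12.3 to 15.6. Replicate arrays correlated at 0.987 or higher over the 12531 genes tested. The spiked poly-A controls averaged 194 to 229 in 4 arrays (2C11 replicate 1, 8G12 replicate 2, 16F8 replicate 1 and parental replicate 1), against 85.4 to 144.5 in the other 14. Of 12 epithelial markers, 9 lay above the array median on every array, with summed signals of 11377 to 14156 in mutant clones and 11408 to 16706 in wild-type clones; KRT20, VIL1 and CDX1 did not. Of 8 fibroblast markers, COL1A1 was the exception above the median on every array (sums of 204 to 316 in mutant clones and 246 to 376 in wild-type clones), and DCN, LUM and PDGFRA reached at most 4.7. None of 6 measured blood cell markers lay above the median on every array (sums of 30.3 to 159 in mutant clones and 24.5 to 33.5 in wild-type clones), and LYZ made the difference, at 12.9 to 142 in mutant clones and 8.2 to 19.4 in wild-type clones.

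Between genotypes, no dioxygenase gene passed the test. For each genotype comparison limma was fitted to clone means, 9 in all, so that the clone was the replicate, and p-values were adjusted over the 12531 genes tested. The 7 mutant clones against the 2 wild-type clones gave 0 of 40 members past an adjusted p of 0.05, where 0% of all genes were. The 3 IDH1-mutant clones against wild-type gave 0 of 40 (0% of all genes), and the 4 IDH2-mutant clones against wild-type gave 0 of 40 (0% of all genes). IDH2-mutant against IDH1-mutant clones also gave 0 of 40 members, beside 1 gene (0.00798%) of all. At an unadjusted p under 0.05 limma counted 2 members between mutant and wild-type clones (6.89% of all genes were), 7 between IDH1-mutant and wild-type (15.4%), 1 between IDH2-mutant and wild-type (5.04%) and 6 between IDH2-mutant and IDH1-mutant clones (13.2%). The smallest adjusted p of any member was 0.142, for ALKBH2 in IDH1-mutant against wild-type clones.

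Mutant minus wild-type, the median log2 difference was -0.05 for the TET genes, 0.02 for the JmjC genes, 0.12 for the HIF hydroxylases, 0.01 for the collagen hydroxylases, 0.02 for ALKBH and FTO and -0.07 for the other enzymes. Over the 40 members it was 0.00, with 20 above 0 and 20 below, and the median of all genes was -0.00. The IDH1-mutant clones gave medians of -0.07 (TET), -0.05 (JmjC), 0.17 (HIF hydroxylases), -0.09 (collagen hydroxylases), 0.07 (ALKBH and FTO) and -0.04 (other enzymes). The IDH2-mutant clones gave 0.02, 0.02, 0.07, 0.07, -0.06 and -0.09 in the same order of classes. The 10th to 90th percentiles of the mutant minus wild-type differences were -0.29 and 0.21 for the members and -0.30 and 0.30 for all genes tested.

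**Figure D1:**
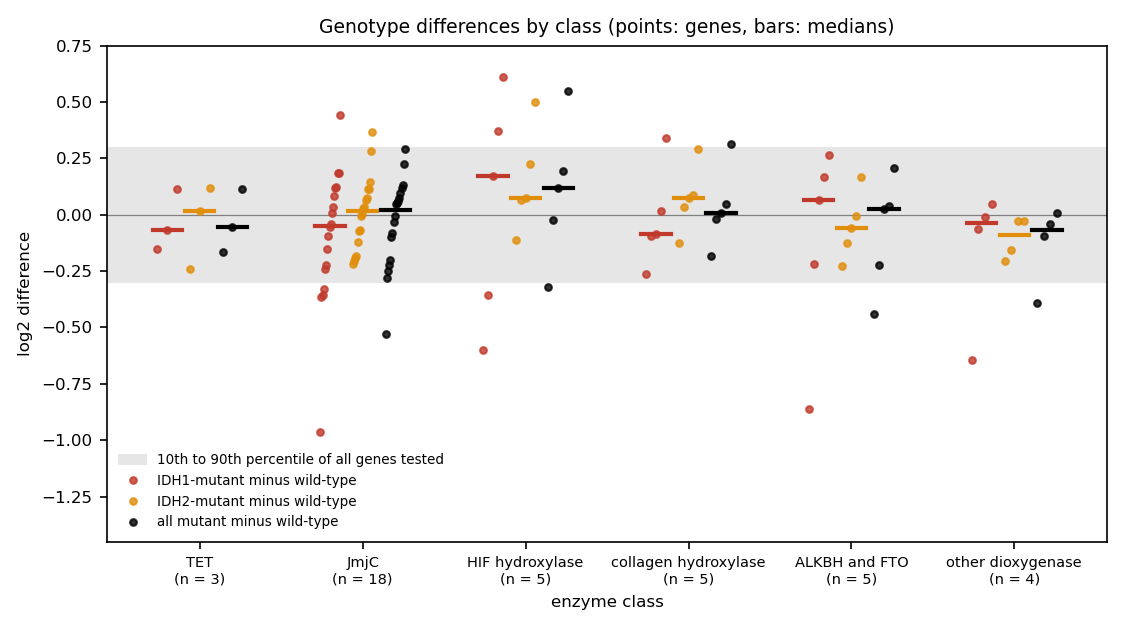
The log2 difference of each dioxygenase gene (point) from the wild-type clones, by enzyme class, for the 3 IDH1-mutant clones (red), the 4 IDH2-mutant clones (orange) and all 7 mutant clones (black); short bars are class medians and the grey band is the 10th to 90th percentile of mutant minus wild-type over all 12531 genes. Class medians lie between -0.09 and 0.17, and the lowest points are KDM7A (-0.96) and ALKBH2 (-0.86) in the IDH1-mutant clones.

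Between single clones the share of members that varied was near that of all genes. A limma F-test on the 18 arrays found 22 of 40 members (55.0%) different among the 9 clones, against 52.4% of all genes tested. By class these were 2 of 3 TET genes, 9 of 18 JmjC genes, 3 of 5 HIF hydroxylases, 4 of 5 collagen hydroxylases, 2 of 5 ALKBH and FTO genes and 2 of 4 other enzymes. The range of a member over the clone means had a median of 0.60 on the log2 scale, and that of all genes was 0.63. Such tests compare clones, not genotypes, and the 8 comparisons with parental share the same 2 parental arrays.

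In the IDH1-mutant clones, 12 or 13 of the 40 members differed from parental. Clone 2C11 had 5 members higher and 7 lower than parental (13.4% and 12.5% of all genes), clone 2H1 had 5 higher and 8 lower (14.7% and 16.3% of all genes), and clone 3A4 had 5 higher and 8 lower (17.6% and 19.6% of all genes). Among the IDH2-mutant clones, 8G12 had 2 higher and 4 lower (11.4% and 7.05% of all genes), and 17H5 had 4 higher and 3 lower (6.88% and 4.97% of all genes). Clone 47C2 had 3 higher and 4 lower (14.2% and 13.8% of all genes), and 45G3 had 5 higher and 7 lower (15.1% and 14.7% of all genes). The wild-type clone 16F8 differed from parental in 9 of 40 members, 4 higher and 5 lower (12.4% and 9.58% of all genes). As shares of the 40 members, these calls came to 30% in 2C11 and 45G3, in 2H1 and 3A4 to 32.5%, in 8G12 to 15%, in 17H5 and 47C2 to 17.5% and in 16F8 to 22.5%. Some of these counts turned on 1 array. Without its own replicate 2 the count was 7 in 2C11, 7 in 2H1, 5 in 45G3, 3 in 47C2 and 1 in 17H5, and without its replicate 1 it was 4 in 16F8. Without parental replicate 2 it was 3 in 8G12, 3 in 17H5 and 7 in 45G3. Without the 4 arrays of high poly-A controls, 3 members passed in 17H5 and 4 in 47C2.

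**Figure D2:**
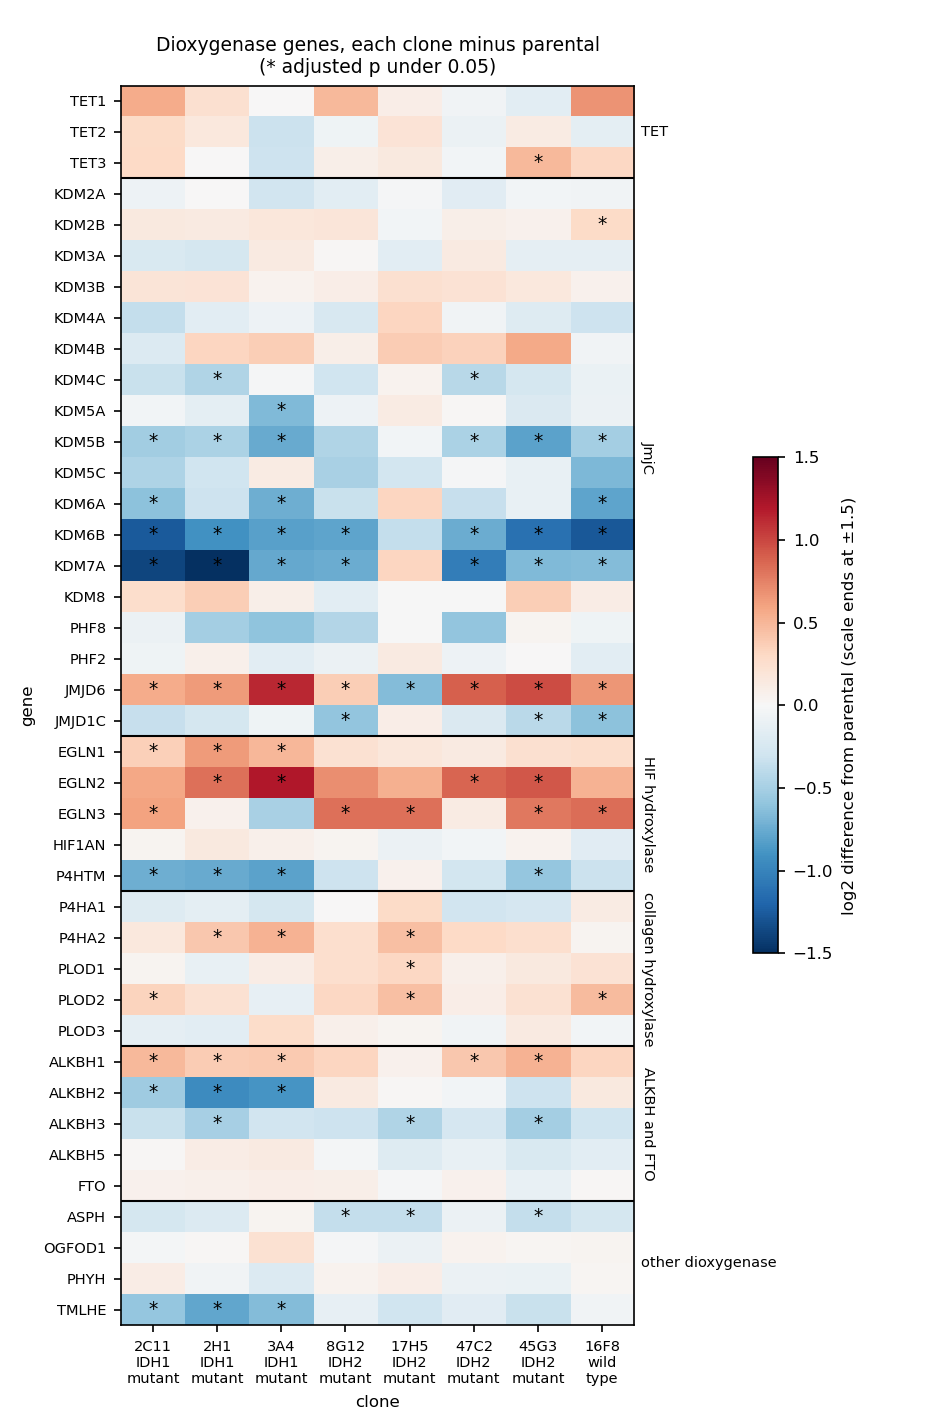
Log2 difference of each of the 40 dioxygenase genes (rows, by class) from parental in each clone (columns, mutant clones left and 16F8 at the right); red is higher and blue is lower than parental, the scale ends at 1.5 in either direction, and an asterisk marks a limma adjusted p under 0.05. JMJD6 is called in all 8 clones, KDM7A and KDM6B are blue with an asterisk in every clone but 17H5, and ALKBH2 and TMLHE have asterisks in the 3 IDH1-mutant clones.

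The TET genes encode the enzymes that oxidise 5-methylcytosine in DNA, the first step of its active removal. TET1 had signals of 60.3 and 48.8 in 2C11, 36.1 and 52.1 in 2H1, 29.6 and 45.2 in 3A4, 31.5 and 33.0 in 45G3, 38.3 and 31.9 in 47C2, 37.1 and 72.5 in 8G12, 45.1 and 33.8 in 17H5, against 59.2 and 59.0 in 16F8 and 35.4 and 37.3 in parental. Its highest and lowest arrays were both in mutant clones, and the groups overlapped. TET2 ran from 123 in 3A4 to 213 in 2C11, with 157 and 147 in 16F8 and 173 and 162 in parental. TET3 was 429 and 421 in 2C11, 327 and 367 in 2H1, 258 and 296 in 3A4, 441 and 529.9 in 45G3, 342 and 326 in 47C2, 313 and 429 in 8G12, 327 and 440.4 in 17H5, against 444 and 407 in 16F8 and 355 and 332 in parental. Both arrays of 45G3, 2C11 and 16F8 lay above both parental arrays of TET3, and both 3A4 arrays lay below them. TET3 was higher than parental in 45G3, by 0.49 ± 0.15 (SE) on the log2 scale (limma adjusted p = 0.0236), and TET1 and TET2 passed in no clone. The second TET3 probe set, which followed the first with r = 0.738, put 45G3 at 0.09 (adjusted p = 0.802), so that call was lost on it. Mutant minus wild-type, the log2 differences were -0.17 ± 0.24 for TET1, 0.12 ± 0.16 for TET2 and -0.05 ± 0.18 for TET3, none past the test. TET1 and TET2 are read here by dim or middling probe sets: the second TET1 probe set followed the first with r = 0.231 over the 9 clones, so small differences of TET1 are not settled.

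The JmjC proteins remove methyl groups from histone lysines or hydroxylate other proteins, and they held the members that varied most. JMJD6, a nuclear lysyl hydroxylase of splicing factors, had the largest F of the family, with signals of 553 and 444 in 2C11, 529.5 and 515 in 2H1, 767 and 715 in 3A4, 646 and 681 in 45G3, 625.2 and 624.8 in 47C2, 461 and 413 in 8G12, 219 and 208 in 17H5, against 549.8 and 520.4 in 16F8 and 353 and 319.7 in parental. All arrays of 6 mutant clones and of 16F8 lay above both parental arrays, and both 17H5 arrays lay below them. Against parental JMJD6 rose by 1.13 ± 0.11 (SE) in 3A4 (limma adjusted p = 8.28e-07), 0.98 in 45G3, 0.89 in 47C2, 0.63 in 2H1, 0.56 in 2C11 and 0.37 in 8G12. It was also higher in the wild-type clone 16F8, by 0.67 ± 0.11 (adjusted p = 0.000387). In 17H5 it fell by 0.65 on the log2 scale (adjusted p = 0.00105). The 2 other JMJD6 probe sets that passed the filter gave the same sign in all 8 clones and followed the first with r = 0.979 and 0.948, and the one of highest variance gave 17H5 -0.47 (adjusted p = 0.063), short of the threshold. Over the mutant clones together the difference from wild-type was 0.23 ± 0.37 (adjusted p = 0.875), and 16F8 lay within the range of the mutant clones.

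KDM7A, a demethylase of repressive histone marks, gave 101 and 129.9 in 2C11, 88.5 and 90.3 in 2H1, 156 and 199 in 3A4, 211 and 171 in 45G3, 137 and 153 in 47C2, 177 and 180.0 in 8G12, 356 and 399.9 in 17H5, against 206 and 178 in 16F8 and 277 and 326 in parental. The 4 arrays of 17H5 and parental were the highest, and every other array lay at or under 211. KDM7A fell by 1.72 ± 0.16 (SE) in 2H1 (limma adjusted p = 3.82e-07), and it was also lower than parental in 2C11 (-1.37), 47C2 (-1.04), 3A4 (-0.76), 8G12 (-0.74), 45G3 (-0.66) and the wild-type clone 16F8 (-0.65). In 17H5 the difference was 0.33 and did not pass. KDM7A was also lower in 2H1 and 2C11 than in 16F8, by -1.08 (adjusted p = 0.000152) and -0.73 (adjusted p = 0.0196). The second KDM7A probe set followed it with r = 0.896.

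KDM6B, a demethylase of the mark laid down by Polycomb, was 220.3 and 199 in 2C11, 258 and 277 in 2H1, 281 and 290.0 in 3A4, 259 and 204 in 45G3, 299 and 299 in 47C2, 341 and 248 in 8G12, 424 and 361 in 17H5, against 199 and 217 in 16F8 and 513 and 494 in parental. The 2 parental arrays stood above all 16 others. It fell in 6 of 7 mutant clones, by 1.26 in 2C11, 1.12 in 45G3, 0.91 in 2H1, 0.81 in 3A4, 0.79 in 8G12 and 0.75 in 47C2 (limma adjusted p between 7.99e-06 and 0.00112), and by 1.27 in the wild-type clone 16F8. Set against 16F8 in place of parental, KDM6B was higher in 17H5 (0.91), 47C2 (0.52) and 3A4 (0.46), a direction opposite to that against parental in the last 2. Its paralogue KDM6A gave 63.0 and 66.2 in 2C11, 71.8 and 89.6 in 2H1, 67.3 and 52.0 in 3A4, 82.9 and 103 in 45G3, 79.3 and 76.5 in 47C2, 92.2 and 67.3 in 8G12, 112 and 141 in 17H5, against 53.6 and 59.8 in 16F8 and 81.0 and 123 in parental. Both arrays of 2C11, 3A4 and 16F8 lay below both parental arrays, and 17H5 overlapped with parental. KDM6A was lower than parental in 2C11 (-0.61 ± 0.22), 3A4 (-0.73) and 16F8 (-0.79), and was 1.12 higher in 17H5 than in 16F8. The sizes depended on the probe set. Another KDM6A probe set of similar brightness (mean signal 78.6, r = 0.57) put 2C11 at -0.01, 3A4 at -0.26, 16F8 at -0.22 and 17H5 at 0.11 against parental. A dimmer one (mean signal 15.6, r = 0.727) gave -0.18, -0.39, -0.22 and 0.25 in the same order.

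KDM5B, a demethylase of a promoter mark, had signals of 404 and 341 in 2C11, 382 and 384 in 2H1, 307 and 324 in 3A4, 367 and 254 in 45G3, 374 and 391.7 in 47C2, 336 and 450.2 in 8G12, 477 and 564 in 17H5, against 395 and 356 in 16F8 and 545 and 523 in parental. Its 4 arrays in 17H5 and parental were the highest. KDM5B fell in 2C11 (by 0.52), 2H1 (0.48), 3A4 (0.76), 47C2 (0.48) and 45G3 (0.80), and in 16F8 by 0.51, with limma adjusted p-values of 0.00121 to 0.0335. All 3 further KDM5B probe sets followed it with r = 0.848 to 0.935, but on the one of highest variance the same 6 clones gave -0.35 to -0.84 and none passed (adjusted p = 0.0958 to 0.529). JMJD1C, a relative of the KDM3 demethylases, gave 424 and 411 in 2C11, 443 and 445 in 2H1, 469 and 557 in 3A4, 411 and 391 in 45G3, 485 and 434 in 47C2, 295 and 421 in 8G12, 599 and 547 in 17H5, against 347 and 349 in 16F8 and 509 and 558 in parental. Clones 3A4 and 17H5 overlapped with parental or exceeded it, and every array of the other 6 clones lay below both parental arrays. JMJD1C was lower than parental in 8G12 (-0.59), 45G3 (-0.41) and 16F8 (-0.61). Its probe set of highest variance (mean signal 20.2, r = 0.301 with the one used) called none of the 3. It gave 45G3 0.39 (adjusted p = 0.373). A brighter JMJD1C probe set (mean signal 388.5, r = 0.924) gave 8G12 -0.52, 45G3 -0.48 and 16F8 -0.64. Those with r = 0.904 and 0.687 also put all 3 clones below parental. The one with r = 0.594 gave 8G12 -0.22, 45G3 0.03 and 16F8 0.11. KDM5A was lower in 3A4 alone among the clones tested (-0.66).

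**Figure D3:**
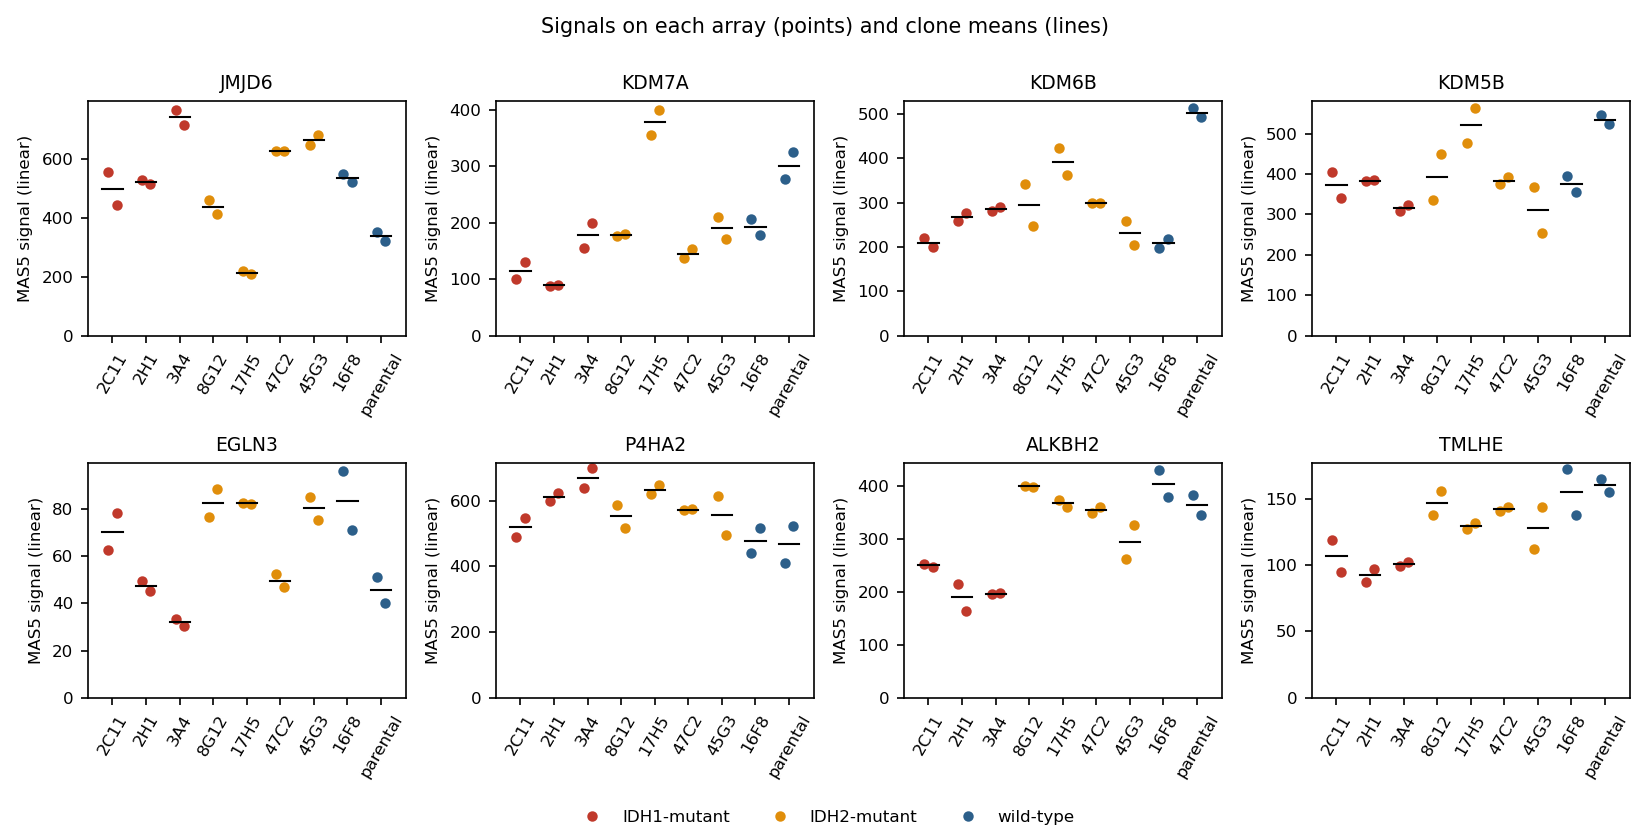
MAS5 signal (linear) of 8 dioxygenase genes on each array (points) with the clone means (lines), for IDH1-mutant clones (red), IDH2-mutant clones (orange) and the wild-type clones 16F8 and parental (blue). KDM6B is highest in parental, JMJD6 is lowest in 17H5, and ALKBH2 is lower in the 3 IDH1-mutant clones, at 164 to 254, than in every other clone.

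KDM4C, a demethylase of repressive histone marks, was read differently by its 2 probe sets above the filter. The brighter one gave 122 and 96.3 in 2C11, 105 and 94.0 in 2H1, 136 and 134 in 3A4, 107 and 122 in 45G3, 101 and 104 in 47C2, 110.4 and 111 in 8G12, 138 and 147 in 17H5, against 137 and 119.7 in 16F8 and 132.4 and 141 in parental. On it the groups overlapped, and KDM4C was lower than parental in 2H1 (-0.45 ± 0.14, limma adjusted p = 0.0229) and 47C2 (-0.41, adjusted p = 0.0391). The dimmer one gave 30 and 17.0 in 2C11, 27.9 and 25.8 in 2H1, 18.2 and 22.9 in 3A4, 49.8 and 61.6 in 45G3, 45.1 and 44.5 in 47C2, 52.4 and 83.7 in 8G12, 106 and 118 in 17H5, against 80.0 and 58.5 in 16F8 and 107 and 72.6 in parental. All 6 arrays of the IDH1-mutant clones lay at or under 30, and all 12 others lay at 44.5 or above. With that probe set KDM4C differed from parental by -2.0 ± 0.27 in 3A4 (adjusted p = 3.40e-05), -1.86 in 2C11 (adjusted p = 0.000104), -1.64 in 2H1 (adjusted p = 0.00025) and -0.95 in 47C2 (adjusted p = 0.0178). Between IDH1-mutant and wild-type clones it gave -1.66 ± 0.32 (adjusted p = 0.14, not past the threshold), where the brighter one gave -0.22 ± 0.18. The 2 followed each other with r = 0.484 over the 9 clones. This probe set was singled out after its values were seen, and where its target lies in the transcript was not examined.

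The remaining JmjC genes had few calls, although the clone means of KDM5C and KDM4B ranged over 0.79 and 0.78 on the log2 scale. KDM2A, KDM2B, KDM3A, KDM3B, KDM4A, KDM4B, KDM5C, KDM8, PHF8 and PHF2 passed against parental in no mutant clone, and KDM2B passed in 16F8 (0.28 ± 0.09, limma adjusted p = 0.0331). Among them KDM4B had the widest spread of arrays, from 290.4 in 16F8 to 765 in 45G3, and its replicate arrays in 16F8 were 290.4 and 598. KDM2B and KDM3B, at 1377 to 1800.2 and 684 to 914, passed in none of these tests among mutant clones, and KDM8 was dim throughout at 16.2 to 33.6. KDM2A has a further probe set that went against the one used (r = -0.535). Of the 4 further KDM5A probe sets, 2 followed the one used with r = 0.797 and 0.7 and put 3A4 at -0.53 and -0.50, 1 had r = 0.043, and 1 had r = -0.758 and put 3A4 at 0.17.

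The HIF hydroxylases mark or silence hypoxia-inducible factor in the presence of oxygen: EGLN1, EGLN2 and EGLN3 hydroxylate prolines that VHL recognises, HIF1AN hydroxylates an asparagine, and P4HTM is a membrane-bound relative. EGLN3, itself induced by HIF in many cells, had signals of 62.5 and 78.4 in 2C11, 49.7 and 45.3 in 2H1, 33.2 and 30.6 in 3A4, 85.1 and 75.4 in 45G3, 52.3 and 47.0 in 47C2, 76.7 and 88.6 in 8G12, 82.7 and 82.3 in 17H5, against 96.1 and 71.1 in 16F8 and 51.2 and 40.3 in parental. Both arrays of 2C11, 8G12, 17H5, 45G3 and 16F8 lay above both parental arrays, those of 3A4 lay below them, and 2H1 and 47C2 overlapped with parental. EGLN3 rose against parental by 0.83 ± 0.19 (SE) in 8G12 (limma adjusted p = 0.00486), 0.83 in 17H5, 0.79 in 45G3 and 0.60 in 2C11, and by 0.83 in the wild-type clone 16F8. In 3A4 EGLN3 was 1.32 lower than in 16F8 (adjusted p = 6.54e-05), and it was lower than in 16F8 in 2H1 (-0.77) and 47C2 (-0.71) too. The sizes depended on the probe set. A second EGLN3 probe set (mean signal 44.5, r = 0.896) put 8G12 at 0.54, 17H5 at 0.51, 45G3 at 0.4 and 2C11 at 0.14 against parental. On it 16F8 was at 0.62, 2H1 at 0.25, 47C2 at 0.11 and 3A4 at -0.81.

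EGLN1, the main oxygen-sensing prolyl hydroxylase, gave 1298 and 1302 in 2C11, 1595 and 1587 in 2H1, 1463 and 1418 in 3A4, 1247 and 1157 in 45G3, 1130.4 and 1101 in 47C2, 1237 and 1155 in 8G12, 1076 and 1209 in 17H5, against 1166 and 1271 in 16F8 and 947 and 1092 in parental. The 6 arrays of the IDH1-mutant clones, at 1298 or more, lay above all 12 others, which reached 1271. EGLN1 rose against parental by 0.64 ± 0.09 (SE) in 2H1 (limma adjusted p = 6.02e-05), 0.50 in 3A4 and 0.35 in 2C11, and on this probe set passed in no IDH2-mutant clone or in 16F8. On clone means the IDH1-mutant clones differed from wild-type by 0.37 ± 0.11 (adjusted p = 0.221) and the IDH2-mutant from the IDH1-mutant clones by -0.31 ± 0.09 (adjusted p = 0.247), neither past the threshold. Of the further EGLN1 probe sets, 1 followed it with r = 0.614 and 1 with r = 0.852, and the second of these also called the IDH2-mutant clone 47C2 (0.51 ± 0.14, adjusted p = 0.0117). That one put 2C11 at 0.49, under 47C2. The one with r = 0.614 (mean signal 46.4) put 2C11 at 0.02, 3A4 at 0.2 and 2H1 at 0.25, with 16F8 at 0.18 and 47C2 at 0.19. On neither did the 3 IDH1-mutant clones lie above all others.

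P4HTM gave 79.9 and 78.3 in 2C11, 71.9 and 83.2 in 2H1, 64.8 and 86.5 in 3A4, 98.6 and 77.7 in 45G3, 111 and 107 in 47C2, 110.4 and 103 in 8G12, 137 and 141 in 17H5, against 104 and 107 in 16F8 and 130.4 and 135 in parental. All 6 arrays of the IDH1-mutant clones lay below all 4 wild-type arrays, and so did both arrays of the IDH2-mutant clone 45G3, which overlapped with the IDH1-mutant arrays. P4HTM fell against parental by 0.80 ± 0.16 (SE) in 3A4 (limma adjusted p = 0.000784), 0.76 in 2H1, 0.73 in 2C11 and 0.59 in 45G3. EGLN2 was 17.3 and 22.9 in 2C11, 21.3 and 27.2 in 2H1, 36.0 and 28.3 in 3A4, 23.3 and 29.1 in 45G3, 24.0 and 26.0 in 47C2, 25.7 and 18.5 in 8G12, 21.1 and 17.4 in 17H5, against 16.7 and 21.6 in 16F8 and 8.9 and 17.6 in parental. The parental arrays were its lowest pair, but this probe set is dim, and 2 EGLN2 probe sets that also match RAB4B-EGLN2 were not used. EGLN2 was higher than parental in 3A4 (1.20 ± 0.28, adjusted p = 0.00318), 45G3 (0.93), 47C2 (0.87) and 2H1 (0.83), with sizes that depend on the offset added to dim signals. With offsets of 16 and 50 the 3A4 difference was 0.73 (adjusted p = 0.00253) and 0.38 (adjusted p = 0.00233). The EGLN2 mean in each of the 7 mutant clones exceeded that of 16F8 and parental, with a difference of 0.55 ± 0.23 between the groups (adjusted p = 0.682). Single arrays overlapped, and 17H5 was barely above 16F8, at mean signals of 19.25 and 19.15. HIF1AN stayed within 634 and 836 and passed in no clone on the probe set used. Its probe set of highest variance followed that one with r = 0.766 and called 3A4 (0.42 ± 0.14, adjusted p = 0.0322), and another had r = -0.274.

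The collagen hydroxylases act in the endoplasmic reticulum: P4HA1 and P4HA2 are catalytic subunits of prolyl hydroxylase, and PLOD1, PLOD2 and PLOD3 are lysyl hydroxylases. P4HA2 gave 489 and 548 in 2C11, 601 and 624 in 2H1, 639.6 and 699.6 in 3A4, 616 and 495 in 45G3, 571 and 575 in 47C2, 588 and 518 in 8G12, 619.5 and 649 in 17H5, against 440.4 and 516 in 16F8 and 409.8 and 525 in parental. Every mutant clone had a higher mean than 16F8 and parental on this probe set, although single arrays overlapped. Mutant minus wild-type, P4HA2 differed by 0.31 ± 0.11 (SE; unadjusted p = 0.016 and adjusted p = 0.682 by limma on clone means). P4HA2 was higher than parental in 3A4 (0.53 ± 0.13, adjusted p = 0.00471), 17H5 (0.45) and 2H1 (0.40). The second P4HA2 probe set followed it with r = 0.702 but put 47C2 at 0.00 and 2C11 at 0.13 against parental, under 16F8 at 0.15. On it 3A4 and 2H1 passed and 17H5 did not (0.18, adjusted p = 0.395). Clone means of mutant and wild-type clones did not overlap for 3 of 40 members (7.5%), which were P4HA2, EGLN2 and TMLHE, and for 5.83% of all genes tested.

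PLOD2, which hydroxylates the telopeptide lysines of collagen, gave 1135 and 1293 in 2C11, 1138 and 1127 in 2H1, 874 and 902 in 3A4, 1249 and 1023 in 45G3, 1037 and 1021 in 47C2, 1207 and 1182 in 8G12, 1189 and 1453 in 17H5, against 1447 and 1235 in 16F8 and 945 and 983 in parental. The arrays of 2C11, 2H1, 8G12, 17H5, 47C2, 45G3 and 16F8 all lay above both parental arrays, and those of 3A4 lay below them. PLOD2 passed in 17H5 (0.45 ± 0.12, limma adjusted p = 0.0179), 2C11 (0.33) and 16F8 (0.47). Its second probe set gave higher values than parental in all 8 clones, with 8G12 at 0.65 ± 0.20 (adjusted p = 0.0348). PLOD1 was higher in 17H5 (0.31 ± 0.09, adjusted p = 0.0269). P4HA1, at 822 to 1486, and PLOD3, at 137 to 206, passed in no clone against parental.

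The ALKBH proteins repair alkylated DNA or demethylate RNA, and FTO and ALKBH5 demethylate adenines of mRNA. ALKBH2, a DNA repair demethylase, gave 254 and 247 in 2C11, 215 and 164 in 2H1, 195 and 199 in 3A4, 262 and 326 in 45G3, 349.6 and 359.9 in 47C2, 400.3 and 399 in 8G12, 374 and 361 in 17H5, against 429.7 and 379.9 in 16F8 and 384 and 345 in parental. The 6 arrays of the IDH1-mutant clones, at 164 to 254, lay below all 12 others, which began at 262. ALKBH2 fell against parental by 0.95 ± 0.13 (SE) in 2H1 (limma adjusted p = 4.09e-05), 0.88 in 3A4 and 0.54 in 2C11, and against 16F8 it was lower in the same 3 clones (-1.10, -1.03 and -0.69). It passed in no IDH2-mutant clone. With the clone as the replicate the IDH1-mutant clones differed from wild-type by -0.86 ± 0.17 (adjusted p = 0.142), and the IDH2-mutant from the IDH1-mutant clones by 0.74 ± 0.14 (adjusted p = 0.15), neither past the threshold. On all 18 arrays, with a random term for the clone, the same differences had adjusted p-values of 0.00533 and 0.00932. That fit shares a single correlation between arrays of a clone over all genes. Arrays of the same clone thus count partly as replicates of the genotype, and its p-values can be too small. On clone means without 2C11 the 2 differences had adjusted p-values of 0.0404 and 0.049. ALKBH2 has 1 probe set, so no second reading was had.

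ALKBH1, which acts on transfer RNA and mitochondrial RNA, gave 320.4 and 309 in 2C11, 301 and 286 in 2H1, 295 and 296 in 3A4, 282 and 367 in 45G3, 293 and 304 in 47C2, 275 and 288 in 8G12, 236 and 232 in 17H5, against 308 and 255 in 16F8 and 252 and 199.6 in parental. All arrays of the 7 clones other than 17H5, 16F8 among them, lay above both parental arrays. ALKBH1 was higher than parental in 2C11 (0.49 ± 0.14, limma adjusted p = 0.0144), 45G3 (0.52), 47C2 (0.41), 3A4 (0.40) and 2H1 (0.39), and both 17H5 arrays lay between the parental arrays. On its second probe set (r = 0.656) 45G3 alone of these 5 clones passed (0.81, adjusted p = 0.032), with 2C11 at 0.56 (adjusted p = 0.141), 47C2 at 0.31, 2H1 at 0.10 and 3A4 at -0.05. ALKBH3, a repair enzyme for alkylated DNA, gave 531 and 434 in 2C11, 446 and 412 in 2H1, 523 and 475 in 3A4, 434 and 417 in 45G3, 509.9 and 509 in 47C2, 485 and 495 in 8G12, 476 and 416 in 17H5, against 539.9 and 447 in 16F8 and 689.8 and 533 in parental. Parental replicate 1 was the highest array, and parental replicate 2 lay below 1 array of 16F8. ALKBH3 was lower than parental in 45G3 (-0.51 ± 0.13, adjusted p = 0.00853), 2H1 (-0.50) and 17H5 (-0.45). Its parental arrays differed by more than any clone's pair. ALKBH5 and FTO, at 1902 to 2808 and 1184 to 1597, passed against parental in no clone, and the further ALKBH5 probe sets did not follow the one used (r = 0.282 and -0.412).

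Among the other enzymes, TMLHE, the mitochondrial enzyme that opens carnitine synthesis, gave 119 and 95.0 in 2C11, 87.4 and 97.1 in 2H1, 99.3 and 103 in 3A4, 112 and 144 in 45G3, 141 and 144 in 47C2, 138 and 156 in 8G12, 127 and 131.7 in 17H5, against 172.3 and 138 in 16F8 and 165 and 155 in parental. All 6 arrays of the IDH1-mutant clones lay below all 4 wild-type arrays, and so did both arrays of the IDH2-mutant clone 17H5. Arrays of 8G12, 45G3 and 47C2 reached into the wild-type range. TMLHE fell against parental by 0.78 ± 0.16 (SE) in 2H1 (limma adjusted p = 0.00114), 0.65 in 3A4 and 0.58 in 2C11. On clone means the IDH1-mutant clones differed from wild-type by -0.64 ± 0.14 (adjusted p = 0.163). Taking 18 arrays and blocking on the clone gave an adjusted p of 0.0291, which can be too small, as said for ALKBH2. The second TMLHE probe set followed the first with r = 0.929. ASPH, which hydroxylates EGF-like domains, gave 2482 and 2928 in 2C11, 2625 and 2993 in 2H1, 3329.8 and 3338 in 3A4, 2559 and 2495 in 45G3, 3051 and 3020.1 in 47C2, 2695 and 2348 in 8G12, 2578 and 2469 in 17H5, against 2585 and 2804 in 16F8 and 2927 and 3561 in parental. All arrays of 8G12, 17H5, 45G3 and 16F8 lay below both parental arrays. ASPH was lower than parental in 8G12 (-0.36 ± 0.11, adjusted p = 0.0279), 17H5 (-0.36) and 45G3 (-0.35). Its 6 further probe sets followed it with r = 0.575 to 0.872 and gave the same sign in these 3 clones. On the one of highest variance none of the 3 passed (8G12 -0.65, adjusted p = 0.0595; 17H5 -0.12, adjusted p = 0.795; 45G3 -0.55, adjusted p = 0.0798). OGFOD1, a hydroxylase of a ribosomal protein, and PHYH, the peroxisomal enzyme of phytanic acid breakdown, passed in no clone.

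Beside the IDH1-mutant values of ALKBH2, TMLHE, P4HTM and EGLN1, the epithelial markers had a median log2 difference from wild-type of -0.69 in IDH1-mutant clones, with 7 of 10 tested below 0, and of -0.27 in IDH2-mutant clones, with 10 of 10 below 0. Over the 9 clone means ZEB1, a repressor of epithelial genes, correlated with ALKBH2 at r = -0.837, with P4HTM at -0.764, with TMLHE at -0.736 and with EGLN1 at 0.657. Over all 40 members the range was -0.857 (P4HA1) to 0.769 (HIF1AN), and neither of these was called against parental in any clone. The part of this shift in the results was not tested. The points of these correlations share the scaling of the arrays, and 3 of 9 are the IDH1-mutant clones.

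Some members kept close company over the 9 clone means. The highest r among pairs was 0.949 for ALKBH2 and TMLHE, and EGLN3 and PLOD2 had 0.896, while EGLN3 and ASPH had -0.93. Genes most like JMJD6 were ALKBH1 (r = 0.831), OGFOD1 (0.752), EGLN2 (0.688), KDM2B (0.598) and EGLN1 (0.455), and the least like it was KDM5B (-0.902). These are descriptions over 9 points of the same arrays, chosen from many pairs.

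**Figure D4:**
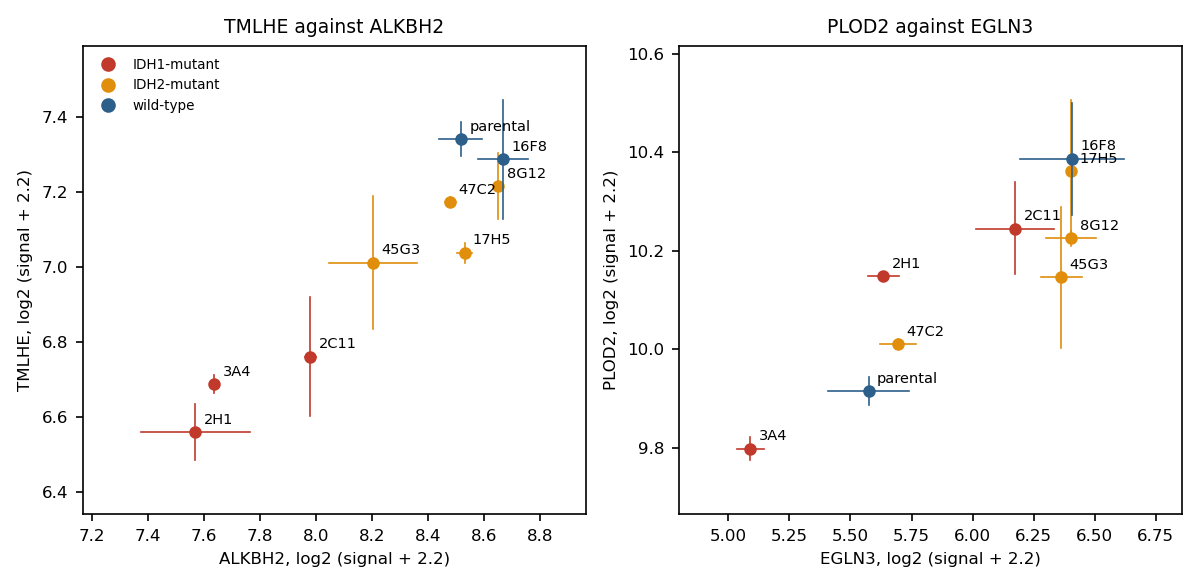
Clone means (points) on the log2 (signal + 2.2) scale for TMLHE against ALKBH2 and for PLOD2 against EGLN3, with lines spanning the 2 arrays of each clone; IDH1-mutant clones are red, IDH2-mutant clones orange and wild-type clones blue. The 3 IDH1-mutant clones lie lowest for both ALKBH2 and TMLHE, and 3A4 lies lowest for both EGLN3 and PLOD2.

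The upstream sequences of these 2 pairs are shown because their members varied together. Each is the 250 bases before the RefSeq gene start on GRCh38.p14, read 5′ to 3′ on the gene's strand. Capitals in PLOD2 mark the core of the hypoxia response element, ACGTG or GCGTG, to which HIF binds, on either strand, so that CACGT and CACGC also count. EGLN3, at chr14:33951075-33951324 on the minus strand, held 0 matches of the core, and PLOD2, at chr3:146161185-146161434 on the minus strand, held 3.
EGLN3: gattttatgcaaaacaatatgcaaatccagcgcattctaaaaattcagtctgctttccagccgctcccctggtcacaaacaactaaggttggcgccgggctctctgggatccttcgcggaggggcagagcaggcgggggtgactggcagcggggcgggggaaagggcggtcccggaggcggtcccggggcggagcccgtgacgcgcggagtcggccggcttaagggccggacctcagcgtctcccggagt
PLOD2: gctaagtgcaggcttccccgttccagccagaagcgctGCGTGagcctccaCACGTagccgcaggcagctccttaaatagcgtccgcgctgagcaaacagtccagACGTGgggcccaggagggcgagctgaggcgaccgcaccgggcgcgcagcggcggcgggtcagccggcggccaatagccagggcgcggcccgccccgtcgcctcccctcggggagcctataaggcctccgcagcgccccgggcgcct
Capitals in ALKBH2 mark CAGGTG, an E-box that ZEB1 can bind, searched on both strands (CACCTG on the other). ALKBH2, at chr12:109093473-109093722 on the minus strand, held 2 of them, and TMLHE, at chrX:155612953-155613202 on the minus strand, held 0 of either motif. ALKBH2 also held 1 hypoxia core, which is left in lower case.
ALKBH2: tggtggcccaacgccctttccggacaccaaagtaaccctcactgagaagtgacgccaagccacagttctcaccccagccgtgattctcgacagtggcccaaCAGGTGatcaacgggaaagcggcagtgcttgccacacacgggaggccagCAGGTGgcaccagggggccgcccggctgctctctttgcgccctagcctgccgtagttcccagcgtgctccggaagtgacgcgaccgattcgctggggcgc
TMLHE: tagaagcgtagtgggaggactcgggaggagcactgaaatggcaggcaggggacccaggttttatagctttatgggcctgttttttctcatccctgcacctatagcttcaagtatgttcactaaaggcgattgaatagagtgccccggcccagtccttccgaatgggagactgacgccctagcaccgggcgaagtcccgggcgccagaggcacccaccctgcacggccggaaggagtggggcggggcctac
The hypoxia core was in 23 of the 38 members with a promoter entry, against 43.1% of 27305 promoters of the same length, and CAGGTG was in 5 of 38, against 17.5%. Of 9 members reported elsewhere as HIF-induced, 7 held the core, and of the 29 others 16 did. No match says only that these letters are not in this window.

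Those 9 members (EGLN1, EGLN3, P4HA1, P4HA2, PLOD1, PLOD2, KDM3A, KDM4B and KDM4C) had a median log2 difference of -0.00 between mutant and wild-type clones, and 8 of 9 varied among clones by the F-test (52.4% of all genes did). HIF-induced genes outside the family had a median of -0.07, and 12 of 19 tested varied among clones. Of these, PDK1, which restrains pyruvate oxidation, was lower than parental in 5 of 7 mutant clones, among them 2H1 (-1.23 ± 0.15, limma adjusted p = 6.42e-06) and 2C11 (-1.11). HK2, a hexokinase, was lower in the 3 IDH1-mutant clones. BNIP3, a mitophagy receptor, was higher in 8G12, 17H5 and 45G3 and in 16F8 (0.70 ± 0.10), and lower in 2H1 (-0.38). ADM was higher than parental in 2 mutant clones and in 16F8. Others of the list went either way. CA12 was higher than parental in 7 of 7 mutant clones and in 16F8, and SLC2A1 and PFKFB4 in 4 mutant clones each and in 16F8. MXI1 was lower than parental in 6 mutant clones, DDIT4 in 5 and VEGFA in 4.

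With 16F8 as the wild-type clone, fewer members differed in most mutant clones. In 2C11 these were 2 of 40 (2.26% of all genes differed), in 2H1 6 (16.5%), in 45G3 0 (2.17%), in 47C2 2 (6.42%), in 17H5 6 (8.53%) and in 8G12 0 (0.63%), by limma at an adjusted p of 0.05. Clone 3A4 was the exception, with 14 of 40 (26.3% of all genes). ALKBH2 was lower than 16F8 in 3 of 3 IDH1-mutant clones, TMLHE in 2H1 (-0.73) and 3A4 (-0.60), and EGLN1 was higher in 2H1 (0.39). The 9 members in which 16F8 differed from parental included JMJD6, KDM7A, KDM6B, KDM5B and EGLN3. A difference from parental in these genes was thus also seen in a clone that does not express a mutant IDH. Some differences of mutant clones were not shared with 16F8. JMJD6 fell in 17H5 where it rose in 16F8, KDM7A was lower in 2H1 and 2C11 than in 16F8, and EGLN3 was lower in 3A4 than in 16F8.

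Related genes gave the setting of these values. By the F-test 52.4% of all genes tested varied among clones, and no list was tested against that share. Of 21 other human genes tested from the 2-oxoglutarate dioxygenase and JmjC families, 10 varied among clones. P3H2, a collagen prolyl hydroxylase, was higher than parental in 6 of 7 mutant clones, by 1.96 ± 0.19 in 3A4 (limma adjusted p = 5.61e-07). RIOX1, a nucleolar JmjC protein, was lower in 4, by -1.30 in 3A4. Of the collagen genes and partners 5 of 10 varied, and COL12A1, a fibril-associated collagen, was higher than parental in 7 of 7 mutant clones (0.40 to 1.51) and in 16F8 (0.58). Of 19 histone lysine methyltransferases 14 varied, and SUV39H1, which lays down a heterochromatin mark, was higher than parental in 6 of 7 mutant clones (0.69 to 1.07) and in 16F8 (0.79). Of the writers and readers of adenine methylation 2 of 10 varied, METTL3, the catalytic writer, among them, and neither FAD-dependent demethylase, KDM1A and KDM1B, varied by the F-test. Among partners of TET 4 of 6 varied, and SMUG1, a uracil glycosylase, was higher than parental in 2C11, 2H1 and 47C2 and in 16F8. Of HIF subunits and the VHL complex 6 of 9 varied, with VHL lower in 2C11 (-0.95 ± 0.23). PHGDH, the first enzyme of serine synthesis, which can also make 2-hydroxyglutarate, was lower than parental in 7 of 7 mutant clones and also in 16F8, at 417 ± 28.3 (SD, n = 2) in 16F8 against 1316 ± 214 in parental.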

How the data were processed

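The deposited files held probe set intensities from 18 one-colour Affymetrix arrays, which are MAS5 signals per the submitters' processing notes. The version and settings of MAS5: not given in the sources used here. After trimming 2% from either end, the mean of each array was 150.01 to 150.02, so the authors had scaled them to a common level. Total RNA was amplified and labelled with biotin, per the labels' protocols.

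An offset of 2.2 (percentile 25 over the whole table) was added to each signal before log2 was taken. The platform annotation, which can be old, gives 41091 of the 54675 probe sets a single symbol, 1801 several and 11721 none. The filter asked that some clone have its 2 arrays at or above the median of the array. Genes were read from their brightest probe set, which left 12531 of 19752. Linear models used limma 3.58.1 in R 4.3.3, by lmFit and eBayes with a mean-variance trend. Tests were two-sided, with Benjamini-Hochberg adjustment over the genes tested and 0.05 as the limit. Mutant against wild-type had 7 residual degrees of freedom on clone means, the 3-group comparison had 6, and tests of single clones on 18 arrays had 9. The fits were tested on simulated data. Errors of log2 differences are standard errors. Arrays give no counts, and their number limits the precision. A p-value for a single clone rests on the spread between the 2 arrays of a clone, pooled over all clones, which may be partly technical.

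The members and the lists of related genes were chosen with earlier results of these data known. Members are described in full when called in at least 3 clones or widest in their class, TET3 and KDM4C being added after their values were seen, and each list names up to 4 genes of smallest F-test p. Replicate numbers do not pair the arrays: deviations of same-numbered arrays correlated at -0.352 to 0.382 in 36 pairs of clones. The alternatives changed the offset, the filter, the scaling, the choice of probe set, the variance model, the block, the wild-type clone or the arrays left out. Promoter sequences are from RefSeq on GRCh38.p14. Plots were made in matplotlib 3.10.9 under Python 3.11.15.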

Additional observations from a re-analysis of the deposited data

Results flagged for a closer look

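Over the 40 members, 80 groups of clone means were checked for a clone that stood apart from the others of its group, and 4 did; chance marks about 1 group in 20. JMJD6 in 17H5 lay at 7.75 on the log2 scale against 8.78 for the nearest of the 7 mutant clones, a gap of 1.03 that was 0.575 of the group's range. ALKBH1 in 17H5 lay at 7.88 against 8.15 for the nearest mutant clone, a gap of 0.26 and also 0.575 of the range. Among the 4 IDH2-mutant clones, EGLN3 in 47C2 lay at 5.69 against 6.36 for the nearest, 0.942 of the range, and ASPH in 47C2 lay at 11.57 against 11.3, 0.978 of the range. A clone was marked when its gap, as a share of the range, passed the critical value of Dixon's outlier test, and no further test was made. The 4 marked among 80 groups are about as many as chance marks.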

How the results depend on the processing

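The absence of called members between mutant and wild-type clones, and between IDH2-mutant and wild-type clones, held under every alternative run. For the IDH1-mutant clones against wild-type, the count became 2 (ALKBH2 and TMLHE) with a replicate block on the arrays (adjusted p = 0.00757 and 0.0375) and also with a random term for the clone. Between IDH2-mutant and IDH1-mutant clones it became 1 (ALKBH2) in the same 2 fits. Both fits count arrays of a clone partly as replicates of the genotype, so their counts do not replace those on clone means. Leaving out single clones or arrays gave 0 to 1 in both comparisons, with 1 without 2C11.

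Counts against parental moved more. In 17H5 the count of 7 became 4 without a filter, 3 with the probe set of highest variance, 4 without a variance trend and 3 without the 4 arrays of high poly-A controls. In 47C2 the count of 7 became 4 without a filter and 4 without those arrays, and in 8G12 the count of 6 became 10 with the mean of all probe sets. Leaving out single arrays gave ranges of 7 to 13 (2C11), 7 to 13 (2H1), 5 to 12 (45G3), 3 to 7 (47C2), 3 to 9 (8G12), 1 to 7 (17H5) and 4 to 10 (16F8). The low ends came without replicate 2 of 2C11, 2H1, 45G3, 47C2 or 17H5, without parental replicate 2 (8G12) and without 16F8 replicate 1. Without parental replicate 2 the count was 3 in 17H5 and 7 in 45G3, and without parental replicate 1 it was 3 in 17H5 and 4 in 47C2.

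Class medians of mutant minus wild-type moved with the wild-type clone. Without 16F8 they were -0.13 (JmjC), 0.32 (HIF hydroxylases), 0.12 (collagen hydroxylases) and -0.13 (other enzymes), and without parental the collagen hydroxylases gave -0.10. The probe set of highest variance gave 0.28 (HIF hydroxylases) and -0.01 (other enzymes), and leaving out the poly-A arrays gave -0.06 (JmjC).

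Against 16F8 in place of parental, 2 members passed in 2C11, 6 in 2H1, 0 in 8G12, 2 in 47C2 and 0 in 45G3. The sign turned for KDM6B in 2C11 (0.01), 2H1 (0.36), 3A4 (0.46), 8G12 (0.48), 47C2 (0.52) and 45G3 (0.14), for JMJD6 in 2C11 (-0.11), 2H1 (-0.03) and 8G12 (-0.29), and for EGLN3 in 2C11 (-0.23), 45G3 (-0.04), 8G12 (0.00) and 17H5 (0.00). It also turned for KDM5B in 2H1 (0.03) and 47C2 (0.03), KDM6A in 2C11 (0.18) and 3A4 (0.06), JMJD1C in 8G12 (0.02) and 45G3 (0.20), and PLOD2 in 2C11 (-0.14) and 17H5 (-0.02). With the probe set of highest variance it turned for ALKBH5 between IDH2-mutant and IDH1-mutant clones (0.22), JMJD1C in 45G3 (0.39) and ALKBH1 in 3A4 (-0.05). With it 18 further differences of single genes lost their calls, among them all 6 of KDM5B. The causes were not tested. Offsets of 16 and 50 changed no side of the threshold for any of the 85 single-gene differences reported.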
